A study of Mus musculus with 8 samples.

Results

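The transcriptional response of wildtype macrophages to 6 h of bacterial lipopolysaccharide (LPS) was described gene by gene. It rests on 4 of the 8 samples of the series, 2 at 0 h and 2 at 6 h, compared as the difference of the group means for every gene with a mean expression value of at least 3 over the 8 samples. That rule kept 11543 of the 55226 genes in the table. The cells were bone marrow-derived macrophages of C57BL/6 mice labelled PtipWT, flushed from femurs and cultured for 7 days in DMEM with 10% serum and 10 ng/ml M-CSF, the growth factor that turns marrow precursors into macrophages. LPS was given at 100 ng/ml. The series holds no sample at 6 h without LPS, so effects of LPS and of 6 h in culture cannot be told apart. The other 4 samples, macrophages labelled PtipcKO that were grown the same way and had the same LPS dose and times, entered the fit only to estimate the spread and for 1 comparison at the end. The labels name neither the Cre driver of the knockout nor the mice behind a replicate number, and the p-values rest on a spread between samples that may be only technical.

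LPS is sensed at the macrophage surface by Toll-like receptor 4 (TLR4), which acts together with CD14 and MD-2. From there the adaptor MyD88 leads through IRAK kinases to the MAP kinases and to NF-kB, which drives cytokine and chemokine genes, and the adaptor TRIF leads to IRF3 and the type I interferon gene Ifnb1. Secreted interferon then acts back on the cells through STAT2 and IRF9 and turns on the interferon-stimulated genes. Macrophages given LPS also rearrange their metabolism and switch on inhibitors that end the response.

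Expression was available as rlog values, a log2 scale in which genes with few reads are pulled toward their own mean, so a difference of 1 is a 2-fold change on this scale and changes of low genes are understated. Across genes, which are not independent replicates, the pair of samples correlated at r = 0.989 at 0 h and at r = 0.988 after LPS. No read counts were used, so the depth behind a value is unknown. Macrophage identity was checked with 11 markers, all above an rlog of 3, whose summed level (log2) was 19.26 and 19.35 at 0 h and 19.53 and 19.57 after LPS. Adgre1, the gene of F4/80, stood at 14.93 and 14.74 and then at 15.18 and 14.71. Of the marker lists of other cells, a mean rlog of 3 was reached by 2 of 12 neutrophil genes, 2 of 9 T cell genes, 2 of 7 B cell genes, 1 of 6 natural killer cell genes, 4 of 7 dendritic cell genes, 3 of 7 mast cell, basophil and eosinophil genes, 3 of 5 megakaryocyte genes, 3 of 6 osteoclast genes, 2 of 5 endothelial genes, 1 of 7 stromal genes and 0 of 7 erythroid genes. Summed levels were higher after LPS than at 0 h in both samples for the neutrophil list (6.91 and 7.49, then 7.64 and 8.17), where S100a8 and Camp were the highest genes and Ly6g lay at -2.03 to -2.02. They were also higher for natural killer cells (5.47 and 4.68, then 9.45 and 9.51, almost all of it Klrk1), dendritic cells (9.26 and 8.74, then 11.18 and 10.20), endothelium (7.20 and 7.67, then 9.42 and 9.60) and stroma (4.39 and 4.13, then 6.45 and 6.41), and by less for T cells (7.75 and 7.20, then 7.95 and 8.19, with Cd3e at -2.17 in all 4 samples) and mast cells, basophils and eosinophils (5.16 and 5.46, then 5.49 and 6.09). The osteoclast list summed to 11.45 to 12.01 and the megakaryocyte list, led by Pf4, to 8.33 to 9.35 over the 4 samples. The part of such cells in the results was not tested.

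After LPS 2598 genes rose (22.5% of those tested) and 2273 fell (19.7%), so that 4871 genes changed (42.2%) at an adjusted p under 0.05 in limma, a linear model with variances shared across genes. Counts of gene list members given below are to be read against 22.5% and 19.7%. On the rlog scale the 2 directions differed in size. The median of all rises was 1.08 and that of all falls -0.89, against -0.01 over all tested genes. A rise of at least 1 was called for 1424 genes (12.3%) and a fall of at least 1 for 923 (8%). At 2 the numbers were 472 (4.09%) and 114 (0.988%), and at 4 they were 69 (0.598%) and 1 (0.00866%). In whole-culture RNA, fewer cells of a type and less RNA per cell cannot be told apart. In the authors' deposited table, 1996 genes passed as higher and 1410 as lower. Its log2 fold changes exceeded the differences given here by a median factor of 1.11 for rises and 1.26 for falls. Falls of more than 4 there included Cnr2 (-5.02), Cd300lb (-4.95) and Cdc25b (-4.83). Rises could be larger there too, as for Nos2 (7.08). The counts at 4 thus depend on the scale.

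**Figure D1:**
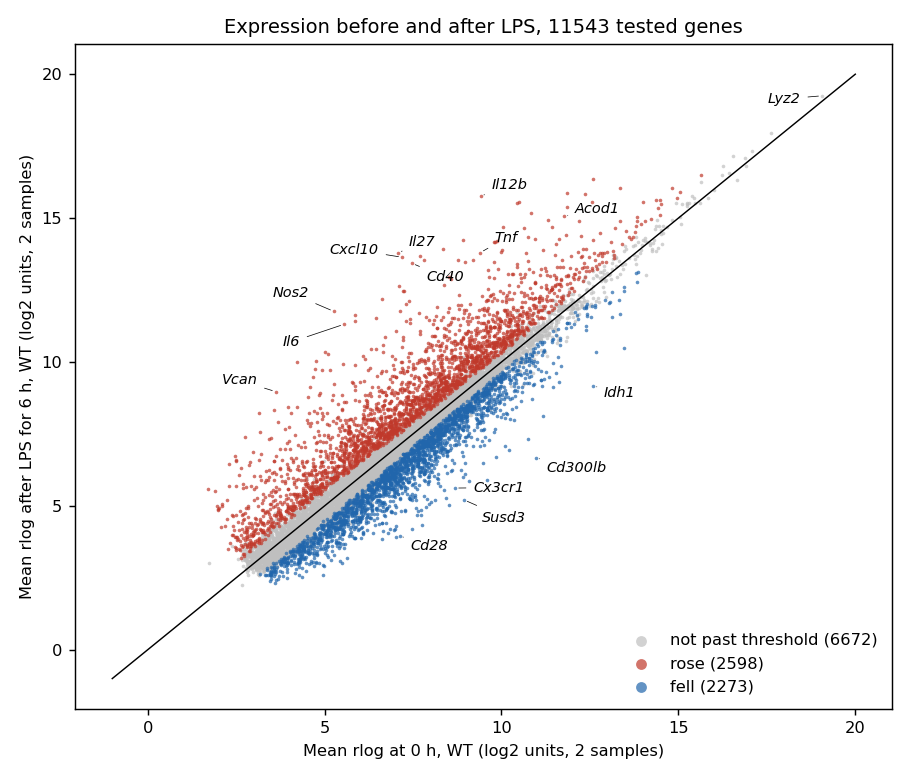
Mean rlog (log2 units) of each of 11543 tested genes at 0 h (horizontal axis) and after LPS for 6 h (vertical axis) in the 2 WT samples of each group; the line marks equal levels. The 2598 genes that rose reach farther from the line than the 2273 that fell, with Il27, Nos2 and Cxcl10 at the top left and Cd300lb and Idh1 below the line.

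Among the tested genes, most change was in genes already measured at 0 h. Of the 2598 rises, 112 started from a mean under 3. The filter on the mean over the 8 samples limits this number. It removes genes low at 0 h, such as Ifnb1, unless other samples lift the mean. The 2 samples at 0 h were not equal for the strongest responders. Among the 69 genes that rose by at least 4, replicate 1 at 0 h was above replicate 2 in 65, by a median of 0.77, against 5864 of all 11543 tested genes with a median of 0.01. After LPS replicate 1 was the higher for 44 of the 69, with a median gap of 0.14. Without replicate 1 the median rise of these genes was 5.21, without replicate 2 it was 4.22, and with both it was 4.63. All 69 stayed past the threshold either way.

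The receptor itself was not among the genes that changed. Tlr4 read 8.66 and 8.33 before LPS and 8.49 and 7.69 after it (-0.41, SE 0.26, adjusted p = 0.239), and the groups overlapped. Of 17 tested genes of the receptor complex and its adaptors 8 rose (47.1%) and 3 fell (17.6%), with a median of 0.45. Over all tested genes the shares were 22.5% and 19.7%. Scimp, an adaptor that binds Toll-like receptors, went from 7.90 and 8.27 to 11.71 and 11.19, a rise of 3.37 (SE 0.21). Every LPS value of Scimp lay more than 2 units above every 0 h value. Ly96, the gene of MD-2, rose by 1.11, Myd88 by 1.54, Irak2 by 1.66 and Ticam1, the gene of TRIF, by 1.04. The 3 falls were weak. Irak3, an inhibitory kinase, fell by 0.80, with an adjusted p of 0.177 without replicate 1 at 0 h, 0.0736 without LPS replicate 1 and 0.102 without LPS replicate 2. Irak4 fell by 0.60 (0.0514 and 0.0594 without replicate 1 or 2 at 0 h, 0.0668 without LPS replicate 2). Rnf128, a ubiquitin ligase, fell by 1.62 (0.0733 without replicate 2 at 0 h, 0.0853 without LPS replicate 1).

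The other Toll-like receptors mostly went up. Of 11 tested, counting their partner proteins, 9 rose and 1 fell, though only 5 rose without replicate 1 at 0 h or without LPS replicate 1. Tlr3, the endosomal receptor for double-stranded RNA, stood at 6.62 and 5.97 at 0 h and at 10.18 and 9.42 after LPS, a rise of 3.51 (SE 0.35, adjusted p = 0.000115). Tlr1 rose by 1.89 and Tlr6 by 1.60; both pair with Tlr2 to recognise bacterial lipopeptides. Tlr13, a receptor for bacterial ribosomal RNA, was the exception and fell by 0.57. Of 25 kinases between the adaptors and the transcription factors 10 rose (40%) and 3 fell (12%). Over all tested genes the shares were 22.5% and 19.7%. Among the rises were Map2k1 (1.75) and the p38 substrate Mapkapk2 (1.78). Mapk14, the gene of p38 alpha itself, went the other way, from 7.78 and 7.63 to 6.38 and 6.29, a fall of 1.37 (SE 0.16). The other 2 falls were Map2k6 (-0.76), with an adjusted p of 0.0801 to 0.159 when any 1 WT sample was left out, and Mapkapk3 (-0.64), with 0.0832 without replicate 1 at 0 h and 0.0834 without LPS replicate 2.

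Transcription factors of the pathway rose together with their inhibitors. Of 12 NF-kB subunits and IkB proteins 9 rose and 0 fell, with a median of 1.14. Among the subunits Nfkb2 rose by 2.1, Nfkb1 by 1.76, Rel by 1.01 and Rela by 0.67. The IkB genes, whose proteins hold NF-kB in the cytoplasm, held the 3 largest differences of the list. Nfkbib went from 9.67 and 9.53 to 12.18 and 12.16 (2.57, SE 0.12, adjusted p = 5.83e-06), Nfkbie rose by 2.35 and Nfkbia by 2.11.

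Of 18 interferon regulatory factors, STATs and BATF factors 13 rose and 1 fell. Irf3, the factor directly downstream of TRIF, stood at 8.92 and 8.85 before and 8.95 and 8.89 after LPS (0.03, SE 0.13, adjusted p = 0.86). Irf1 rose from 7.86 and 8.26 to 11.39 and 11.22, a difference of 3.25 (SE 0.19). Irf7, which amplifies interferon production, rose by 2.65 and Stat2 by 1.64. The BATF factors split: Batf2 rose by 3.49 and Batf by 1.95, while Batf3, known for its part in dendritic cell development, fell by 1.75.

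Immediate early genes moved both ways. Of 21 tested 8 fell and 3 rose, with a median of -0.63. Egr2 went from 10.27 and 10.33 to 8.77 and 7.96 (-1.93, SE 0.35), Jun fell by 1.41 and Myc by 0.98. Jund (1.08), Atf3 (0.99) and Klf6 (1.06) rose. Replicate 1 at 0 h was the higher for 18 of the 21 genes, by a median of 0.51, and without it, or without LPS replicate 2, 3 genes fell and 4 rose. With no filter on low values 3 fell and 3 rose. Factors that shape macrophage identity moved both ways, with 10 rises and 7 falls in 26 genes (6 rises without replicate 1 at 0 h or without LPS replicate 1). The shares of these identity factors were 38.5% and 26.9%, against 22.5% and 19.7% of all tested genes. Pparg fell by 1.71, while Nr1h3, the gene of the oxysterol receptor LXR alpha, rose by 1.66 and Tcf4 by 1.77. The master factor Spi1, which encodes PU.1, was at 8.17 and 8.55 and then at 9.09 and 9.09 (0.73, SE 0.80, adjusted p = 0.501). Its WT groups did not overlap, and its SE takes in the spread of the cKO samples as well.

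Cytokine genes had the highest median of the 47 gene lists examined. Of 20 tested 18 rose and 0 fell, with a median difference of 3.80. Il27, a subunit of interleukin 27, had 7.98 and 6.19 at 0 h and 13.70 and 13.89 after LPS, a rise of 6.71 (SE 0.46, adjusted p = 2.3e-05) and about 105-fold on this scale. Il12b, the shared subunit of interleukins 12 and 23, went from 9.77 and 9.05 to 15.33 and 16.19 (6.35, SE 0.46), and Il12a, its partner in interleukin 12, rose by 4.69. Il6 went from 6.11 and 5.0 to 11.08 and 11.55 (5.76, SE 0.33). The LPS samples of these genes lay at least 4 units above the higher 0 h sample. Tnf stood at 9.58 and 9.21 and reached 13.61 and 14.00 (4.41, SE 0.18). Lta, its neighbour on chromosome 17, rose from 5.0 and 4.49 to 9.83 and 9.69 (5.01, SE 0.22). Il1a rose by 4.39, Il1b by 3.14 and Il18 by 3.30. Edn1, which encodes the vasoconstrictor endothelin 1, rose by 4.76 and the death ligand gene Tnfsf10 by 4.23. Osm and Ltb did not change past the threshold, with -0.06 and 0.07. Ifnb1 lay under the filter, at 1.54 and 1.60 at 0 h and 4.24 and 3.29 after LPS, and was not tested.

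**Figure D2:**
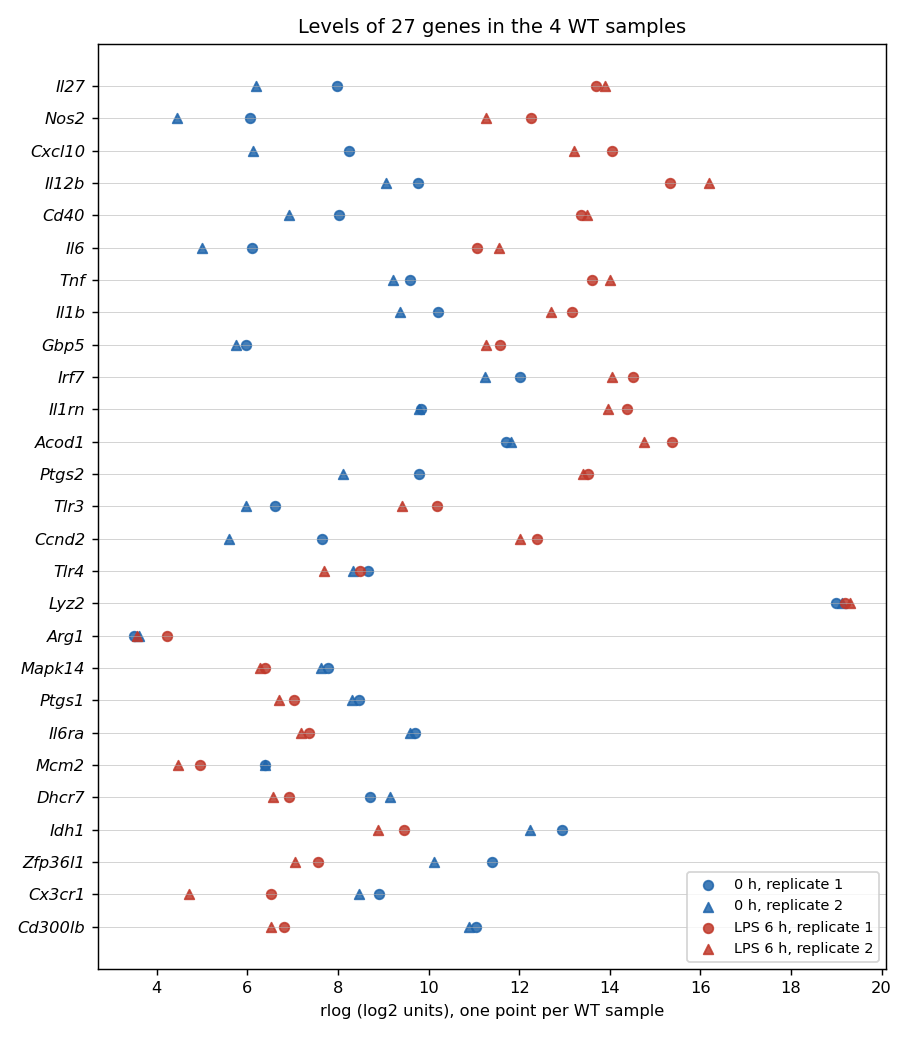
rlog (log2 units, horizontal axis) of 27 genes in each of the 4 WT samples; blue marks 0 h, red LPS for 6 h, circles replicate 1 and triangles replicate 2. Blue and red points are apart for Il27, Nos2 and Cd300lb and within about 1 unit of each other for Tlr4, Lyz2 and Arg1, and for Il27 and Cxcl10 the 0 h circle lies about 2 units above the 0 h triangle.

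Chemokine genes rose in 18 of 20 cases, with a median of 2.53 and 0 falls. Cxcl10, a T cell attractant induced by interferon, went from 8.25 and 6.13 to 14.06 and 13.22, a rise of 6.45 (SE 0.59, adjusted p = 7.61e-05). Its neighbours Cxcl9 and Cxcl11 on chromosome 5 rose by 5.09 and 4.15. The monocyte attractant Ccl7 rose by 4.74, Ccl12 by 4.57 and Ccl2 by 2.53. Ccl5 showed how far the 0 h samples could differ: it stood at 12.05 and 9.63 before and at 15.12 and 15.22 after LPS (4.33, SE 0.61). Ccl22 and Ccl17, better known from alternatively activated macrophages, rose by 2.79 and 2.19. The constitutive macrophage chemokine Ccl6 was at -0.28 and did not pass.

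After adjustment for the joint length of all exons of a gene, chemokines entered the most abundant messages. This length can exceed that of the main transcript, so ranks between genes are approximate. Genes known only by a clone, Rik, Gm or pseudogene name were not ranked. Among 10114 genes ranked by rlog minus log2 of the exon length in kilobases, Ccl3 moved from rank 55 to rank 5, Ccl4 from 237 to 15 and Ccl5 from 197 to 17. Il12b moved from rank 1107 to rank 23. The leading genes stayed in place: Lyz2 (lysozyme), Ctss (cathepsin S) and Wfdc17 held ranks 1, 2 and 3 at both times. Of the top 10 genes 8 were shared between the times, and 30 of the top 100 after LPS were not among the top 100 before. As a share of the summed linear values (2 to the power of rlog) over all tested genes, cytokines went from 0.0827% and 0.0642% to 0.954% and 1.34%, and chemokines from 0.779% and 0.673% to 1.85% and 1.83%.

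Receptors for chemoattractants moved both ways. Of 15 chemoattractant receptors 4 rose (26.7%, against 22.5% of all tested genes) and 6 fell (40%, against 19.7%), with a median of -0.00. Cx3cr1, the fractalkine receptor, fell from 8.90 and 8.47 to 6.53 and 4.71 (-3.07, SE 0.48), with a wide gap between the LPS samples. Cxcr3 fell by 1.49, Cxcr4 by 1.39 and the complement receptor C5ar2 by 1.77. Ccr7, which guides cells to lymph nodes, rose by 1.75, the chemerin-binding receptor Ccrl2 by 1.56 and the formyl peptide receptor Fpr2 by 1.41. Of 30 cytokine and growth factor receptors 10 rose (33.3%) and 5 fell (16.7%), and 6 rose after quantile normalization. Il15ra rose from 7.48 and 6.89 to 10.74 and 10.29 (3.33, SE 0.25), and its ligand Il15 rose by 3.56. Il6ra fell from 9.71 and 9.59 to 7.37 and 7.18 (-2.37, SE 0.15), against the rise of its ligand. Ifngr1, a chain of the interferon gamma receptor, fell by 1.80. Csf1r, the receptor for M-CSF, was at 13.08 and 13.44 and then at 13.13 and 12.77 (-0.31, adjusted p = 0.191).

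Interferon-stimulated genes rose almost without exception. Of 57 tested antiviral genes 54 rose and 0 fell, with a median of 2.30, and all 18 tested guanylate-binding proteins and immunity-related GTPases rose, with a median of 3.27. Gbp5, a GTPase that coats intracellular bacteria, had the smallest SE among the 15 largest rises, with 5.97 and 5.74 before and 11.57 and 11.26 after LPS (5.56, SE 0.19, adjusted p = 4.49e-06). Rsad2, the gene of the antiviral enzyme viperin, went from 10.80 and 10.18 to 15.83 and 15.28 (5.07, SE 0.33), and its neighbour Cmpk2 rose by 5.08. Isg15 went from 10.69 and 10.78 to 14.30 and 14.38 (3.60, SE 0.38). Ifi205, a DNA-binding protein of the Ifi200 family, rose by 5.99, Oasl1 by 4.77 and Mx1 by 4.30. The 3 genes that did not pass were Ifitm1 (-0.19), Ifitm6 (-0.97) and Ifi27 (-0.08). Together the antiviral genes went from 1.18% and 1.09% of the summed linear values to 5.94% and 5.01%. Several of these families hold near-identical copies (Gbp, Ifi200, Ifit, Tgtp), between which the authors' counting could have split reads.

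Many of these genes lie in clusters, and runs of tested neighbours moved together. Genes under the filter were skipped. Some rising runs held none of the families named above, such as 8 genes from Htr2a to Zc3h13 on chromosome 14. Among tested genes in genome order, 35 runs of at least 5 neighbours rose together and 10 fell together, and no falling run was longer than 5. On GRCm38 the longest run was 13 genes from Aim2 to Ifi205 on chromosome 1 (173350879 to 174031810), with rises of 1.14 to 5.99. A run of 10 on chromosome 11 (48861968 to 49135387) held Irgm1, Tgtp1, Tgtp2 and Ifi47, and another of 9 on the same chromosome (82951349 to 83215154) held the Schlafen genes. The 6 Ifit genes on chromosome 19 (34550694 to 34650009) rose by 2.53 to 5.57. The 6 guanylate-binding protein genes on chromosome 5 (105014150 to 105346472) rose by 1.36 to 5.23. Among the falling runs, one around Cnr2 on chromosome 4 held differences of -3.43 to -0.49, and one on chromosome 7 (3836812 to 4063204) held the Ig-like receptor genes Pira2, Lilra6 and Lair1, with differences of -1.52 to -0.46.

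Promoter sequences are shown for 5 of the induced genes, because they carry the elements that the pathway's factors are known to bind. Each is the stretch of 250 bases before the RefSeq transcript start on GRCm38.p6, read 5′ to 3′ on the gene's strand, and position 0 is the first transcribed base. Capitals mark matches to the interferon-stimulated response element (ISRE, GAAA and GAAA with any 2 bases between them) and to the NF-kB motif, both searched on both strands. The windows are chr5:92348890-92349139 (minus) for Cxcl10, chr3:142496684-142496933 (plus) for Gbp5, chr1:174031756-174032005 (minus) for Ifi205, chr5:30012864-30013113 (plus) for Il6 and chr12:55492648-55492897 (minus) for Nfkbia.
Cxcl10: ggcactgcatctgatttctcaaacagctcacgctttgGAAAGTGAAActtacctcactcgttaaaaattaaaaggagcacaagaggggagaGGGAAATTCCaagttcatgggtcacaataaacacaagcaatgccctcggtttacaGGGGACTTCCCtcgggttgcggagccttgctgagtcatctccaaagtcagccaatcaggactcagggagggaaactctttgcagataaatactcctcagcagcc
Gbp5: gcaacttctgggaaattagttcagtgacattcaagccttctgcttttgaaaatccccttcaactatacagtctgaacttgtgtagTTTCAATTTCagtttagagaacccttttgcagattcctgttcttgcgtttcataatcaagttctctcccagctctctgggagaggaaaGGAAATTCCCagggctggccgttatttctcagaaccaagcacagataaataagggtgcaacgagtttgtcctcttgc
Ifi205: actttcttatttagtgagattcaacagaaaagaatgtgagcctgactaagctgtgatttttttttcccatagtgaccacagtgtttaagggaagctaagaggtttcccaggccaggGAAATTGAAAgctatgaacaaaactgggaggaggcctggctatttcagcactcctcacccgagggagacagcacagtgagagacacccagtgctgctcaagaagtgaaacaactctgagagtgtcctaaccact
Il6: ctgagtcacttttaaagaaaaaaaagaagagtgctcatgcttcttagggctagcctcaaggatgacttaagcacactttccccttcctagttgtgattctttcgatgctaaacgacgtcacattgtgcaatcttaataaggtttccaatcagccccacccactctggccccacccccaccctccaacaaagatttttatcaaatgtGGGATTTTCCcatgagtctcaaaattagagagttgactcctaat
Nfkbia: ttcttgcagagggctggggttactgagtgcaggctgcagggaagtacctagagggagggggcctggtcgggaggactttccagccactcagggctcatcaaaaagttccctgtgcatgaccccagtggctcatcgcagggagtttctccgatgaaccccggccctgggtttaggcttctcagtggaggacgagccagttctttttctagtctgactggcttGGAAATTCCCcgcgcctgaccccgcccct
Cxcl10 held an ISRE match from -213 to -204 and NF-kB matches from -159 to -150 and, overlapping each other, from -104 to -94. Gbp5 held an ISRE match from -165 to -156 and an NF-kB match from -77 to -68. Ifi205 held an ISRE match from -134 to -125. Il6 and Nfkbia held NF-kB matches alone, from -44 to -35 and from -29 to -20.

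The same motifs were counted over windows of 300 bases (250 before to 50 after the start) for 8600 of the 11543 tested genes with a RefSeq entry. ISRE matches were found in 3.44% of all 32851 windows and 3.49% of those of tested genes. The share was 24.2% for genes that rose by at least 4, 14.4% for rises of 2 to 4, 5.97% for rises of 1 to 2 and 2.8% for genes that did not pass. Among falls it was 1.87% under 1, 1.69% at 1 to 2 and 3.17% at 2 or more. By list the share was 44.6% for the antiviral genes and 90.9% (10 of 11 windows) for the guanylate-binding proteins and immunity-related GTPases. Those 11 windows came from 10 of the 18 GTPase genes. Of the 69 genes that rose by at least 4, 51 had a window. Shares are of windows and not of genes, and a gene could have several windows. NF-kB matches were less graded, with 16.1% at rises of at least 4 against 9.83% for genes that did not pass, but reached 61.5% (8 of 13 windows) for the NF-kB and IkB genes and 47.6% for MHC class I presentation.

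Other features of the windows moved with the size of the rise as well. The TATA box (TATAAA) was found in 30.6% of windows at rises of at least 4 and in 6.77% for genes that did not pass, and the AP-1 motif (TGANTCA) in 25.8% and 4.73%. The median ratio of observed to expected CpG was 0.26 at rises of at least 4 and 0.78 for genes that did not pass. The part of this base composition in the motif shares was not tested. A match is a string of letters and not a measured binding site.

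**Figure D3:**
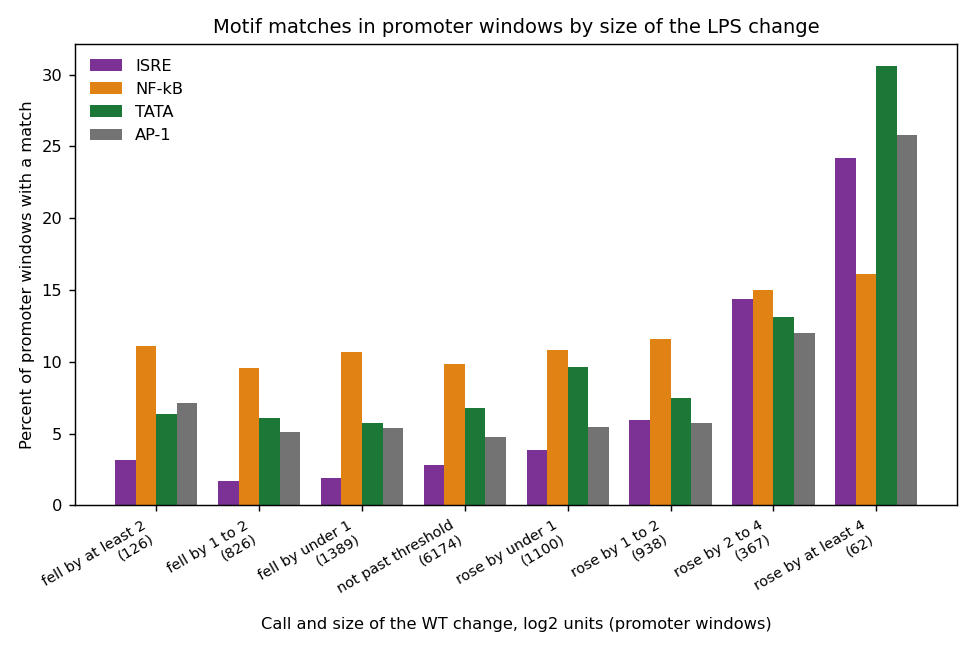
Percent of promoter windows (vertical axis) with a match to the ISRE, NF-kB, TATA and AP-1 motifs, for genes grouped by call and by size of the WT change in log2 units (horizontal axis, number of windows in brackets). ISRE matches rise from 2.8% in genes that did not pass to 24.2% in genes that rose by at least 4, and falls show no such gradient.

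Genes that restrain the response rose as well. Of 34 tested feedback genes 21 rose and 5 fell, with a median of 0.94. Il1rn, the interleukin 1 receptor antagonist, went from 9.84 and 9.79 to 14.39 and 13.96 (4.36, SE 0.18, adjusted p = 5.83e-06), a larger difference than that of Il1b. Usp18, which limits interferon signalling, rose by 3.27, the kinase inhibitor Socs1 by 2.29 and the deubiquitinating enzyme Tnfaip3 by 2.19. Cd274, the gene of PD-L1, rose by 2.55. Il10 rose by 1.61 (SE 0.42, adjusted p = 0.0149), but without replicate 2 at 0 h it was 1.15 (0.0994) and without LPS replicate 1 it was 1.02 (0.0838). The largest falls of the list were in a message-degrading factor and a glucocorticoid target. Zfp36l1, which binds AU-rich elements, fell from 11.41 and 10.12 to 7.56 and 7.06 (-3.45, SE 0.36), and Tsc22d3, the glucocorticoid-induced leucine zipper, fell by 2.97. The 5 falls numbered 2 without replicate 1 at 0 h or LPS replicate 2 and 3 without LPS replicate 1. Dusp1 was at 14.26 and 13.59 and then at 13.99 and 13.56 (-0.14, adjusted p = 0.654).

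Antigen presentation was counted by class. Of 23 genes of MHC class I presentation 19 rose and 0 fell, with a median of 1.35. Tap1, the peptide transporter, went from 10.42 and 10.24 to 13.14 and 12.97 (2.73, SE 0.14), the class I transactivator Nlrc5 rose by 2.61, H2-Q6 by 2.65 and the immunoproteasome subunit Psmb9 by 1.43. B2m, the shared light chain, and H2-D1 were at 0.61 (adjusted p = 0.0658) and 0.53 (0.0873). Of 12 genes of MHC class II presentation 1 rose, H2-Oa (1.37), with a median of 0.31. H2-Ab1 stood at 15.24 and 15.22 and then at 15.57 and 15.40 (0.25, adjusted p = 0.508), and Cd74 was at 0.28 (0.364).

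Costimulatory molecules were among the strongest rises, with 16 of 22 up and a median of 2.06. Cd40 went from 8.03 and 6.91 to 13.36 and 13.49 (5.95, SE 0.34), Cd69 from 9.45 and 8.37 to 14.47 and 13.99 (5.32, SE 0.36), and Cd86 rose by 3.22. Vsir (VISTA, -1.90) and Havcr2 (TIM-3, -1.83), both inhibitory receptors, and Cd200r1 (-0.95) fell.

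Nitric oxide production had 2 large rises, in the synthase and in arginine uptake. Nos2, the inducible nitric oxide synthase, went from 6.06 and 4.45 to 12.26 and 11.26, a rise of 6.50 (SE 0.55, adjusted p = 5.18e-05). Slc7a2, the arginine transporter, went from 9.15 and 9.23 to 13.66 and 13.39 (4.34, SE 0.29). The other 6 rises among 16 tested genes were of 0.45 to 2.38, and the largest of them, Gch1, had an adjusted p of 0.0692 without replicate 1 at 0 h and 0.052 without LPS replicate 2. Spr, Qdpr and Asl fell by 0.77, 0.58 and 0.43, and without replicate 2 at 0 h 1 of them did. Arg1, which competes for arginine, stayed low at 3.49 and 3.60 before and 4.22 and 3.56 after LPS (0.35, adjusted p = 0.298).

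The 2 cyclooxygenase genes of prostaglandin synthesis moved in opposite directions. Ptgs2, the inducible cyclooxygenase, went from 9.80 and 8.12 to 13.51 and 13.42 (4.50, SE 0.43), whereas the constitutive Ptgs1 fell from 8.46 and 8.31 to 7.02 and 6.71 (-1.52, SE 0.21). Ptges, the prostaglandin E synthase, rose by 2.34 and the phospholipase Pla2g4a by 1.48. Those 3 were all the rises in 18 tested genes, and 10 genes fell. Besides Ptgs1 the falls included the thromboxane synthase gene Tbxas1 (-1.17), Alox5ap (-1.06) and the prostaglandin receptor gene Ptger2 (-1.39). Without a filter on low values 6 fell.

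Inflammasome and cell death genes rose in 22 of 35 cases, with a median of 0.85. Mlkl, which executes necroptosis, rose by 2.82, Casp4, the sensor of intracellular LPS, by 2.49, Aim2 by 2.53 and Nlrp3 by 1.91. Anti-apoptotic members were up too, with Cflar at 2.62 and Bcl2a1d at 2.29. The adaptor Pycard was at 0.04 (adjusted p = 0.841). Nlrp1b, another sensor, fell by 1.18, and the other fall, Bcl2l11 (-0.54), was lost without replicate 1 at 0 h (adjusted p = 0.177) and without LPS replicate 1 (0.122).

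**Figure D4:**
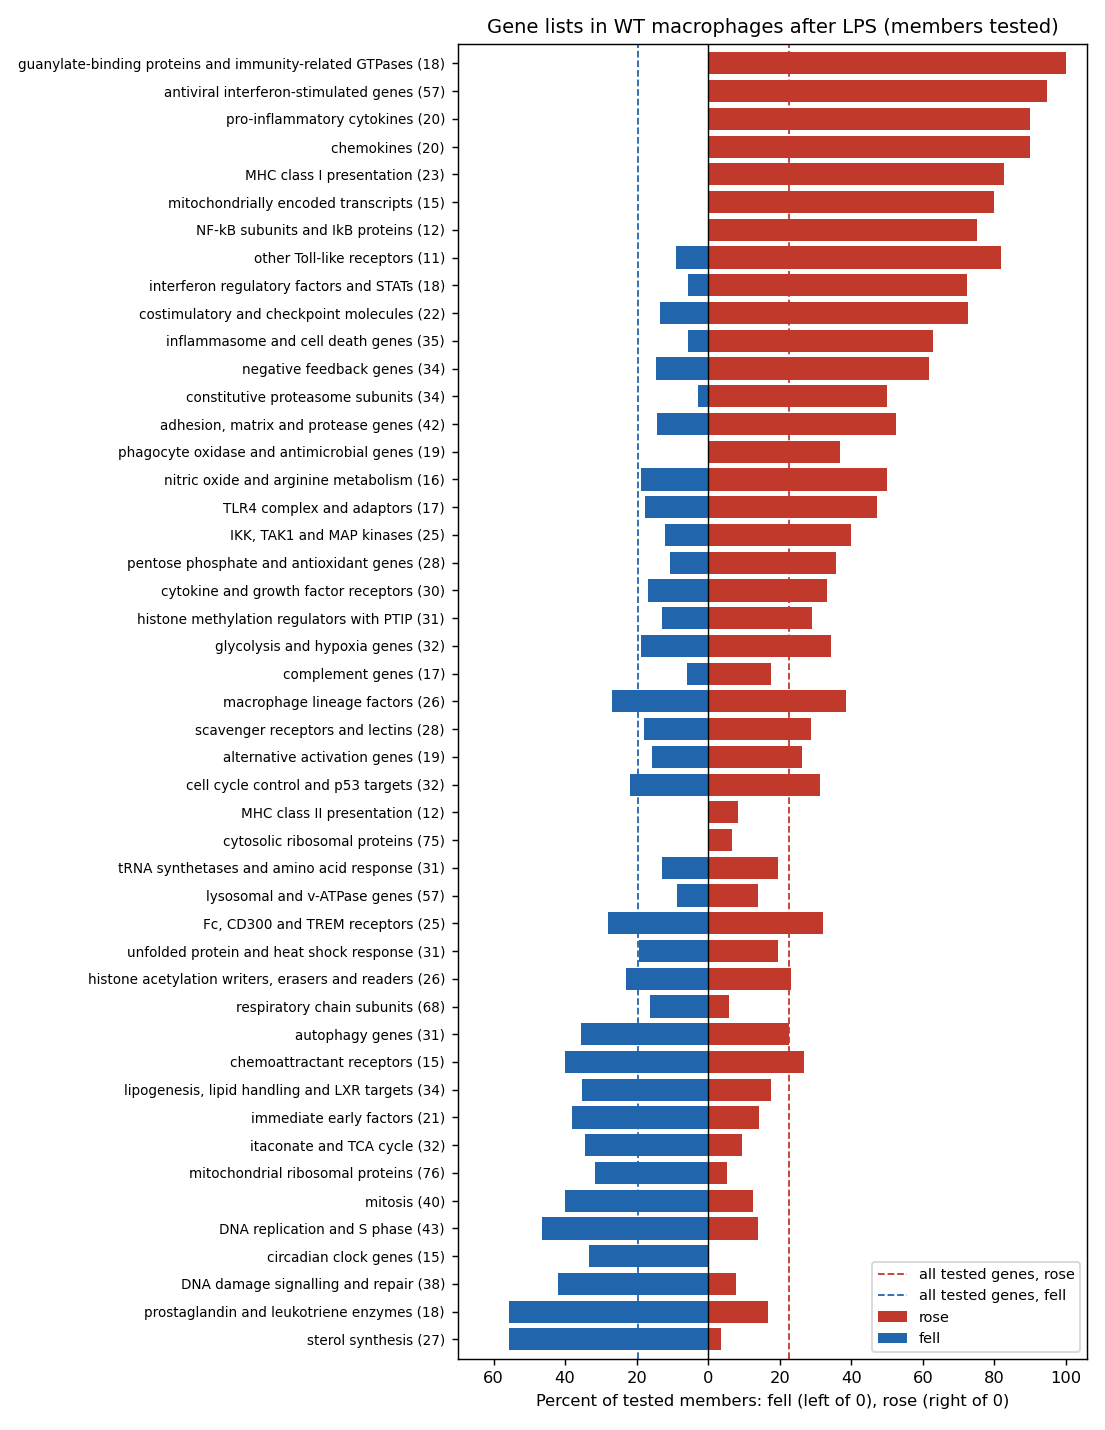
Percent of the tested members of 47 gene lists that rose (red, right of 0) or fell (blue, left of 0) in WT macrophages after LPS, with the number tested in brackets; dashed lines mark the shares over all tested genes, 22.5% and 19.7%. Interferon, cytokine and chemokine lists lie at the top, and prostaglandin and sterol synthesis at the bottom with 55.6% of their members lower.

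The citric acid cycle was lower at several steps beside 1 strong rise. Of 32 genes 3 rose and 11 fell, with a median of -0.25 (21 falls after quantile normalization, 7 without replicate 2 at 0 h). Acod1, which makes the antibacterial metabolite itaconate, went from 11.72 and 11.82 to 15.37 and 14.75 (3.29, SE 0.21). Idh1, the cytosolic isocitrate dehydrogenase, fell from 12.95 and 12.23 to 9.45 and 8.89 (-3.42, SE 0.26, adjusted p = 3.07e-05), and both LPS values lay more than 2 units under both 0 h values. Idh2 fell by 0.90, Idh3a by 1.0, Aco1 by 1.18 and Suclg2 by 1.46.

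Glycolysis genes moved both ways. Of 32 glycolysis and hypoxia genes 11 rose (34.4%) and 6 fell (18.8%), with a median of 0.12. The shares over all tested genes were 22.5% and 19.7%. The sugar transporter gene Slc2a6 rose from 11.12 and 11.24 to 14.02 and 13.77 (2.72, SE 0.14), Pfkp by 2.01, Hk3 by 1.77 and Hif1a by 1.12. Pfkfb4 fell by 1.71. Among later enzymes, Eno1 (-0.13, adjusted p = 0.612), Pkm (-0.12) and Gapdh (0.46) did not pass. Rises numbered 7 and falls 12 after quantile normalization; without LPS replicate 1 7 rose, and without replicate 2 at either time 3 fell. Of 28 pentose phosphate and antioxidant genes 10 rose (35.7%, against 22.5% of all tested genes) and 3 fell (10.7%, against 19.7%). The cystine transporter gene Slc7a11 rose by 2.22 and the mitochondrial superoxide dismutase gene Sod2 by 1.55, while the catalase gene Cat fell by 1.12. Quantile normalization left 6 rises, and 6 fell without replicate 1 at 0 h.

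Genes of the respiratory chain lie in the nucleus and in the mitochondrial genome. Of 68 nuclear genes of the respiratory chain 4 rose (5.88%) and 11 fell (16.2%), with a median of -0.12. Both shares were under those of all tested genes, 22.5% and 19.7%. The cytochrome c gene Cycs stood out with a rise of 1.87 (SE 0.14). The 11 falls became 39 after quantile normalization and 4 without replicate 1 at 0 h or LPS replicate 1 (7 without replicate 2 at 0 h). Of 15 transcripts of the mitochondrial genome 12 rose and 0 fell, with a median of 0.81. mt-Co2 was at 8.96 and 9.68 before and at 10.24 and 10.22 after LPS (0.91, SE 0.21). Replicate 1 at 0 h was the lower sample for all 15, by a median of 0.70, and the rises numbered 3 without that sample, 6 without LPS replicate 1, 4 without LPS replicate 2 and 1 after quantile normalization.

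Sterol synthesis genes went down at many steps. Of 27 genes 15 fell, with a median of -0.62, and the 1 rise was Ch25h (5.79, SE 0.51), which makes the oxysterol 25-hydroxycholesterol. Dhcr7, the enzyme of the final step, went from 8.70 and 9.14 to 6.91 and 6.56 (-2.18, SE 0.22, adjusted p = 0.000111). Acat2 fell by 1.88, Sqle by 1.43, Mvk by 1.41 and Lss by 1.32. Replicate 1 at 0 h was the lower for 25 of these 27 genes, by a median of 0.36. Of 34 genes of lipogenesis, lipid handling and LXR targets 12 fell (35.3%) and 6 rose (17.6%). Over all tested genes 19.7% fell and 22.5% rose. The desaturases Scd2 and Fads1 fell by 2.36 and 2.16 and the elongase Elovl6 by 1.52, while Dgat2, which makes triglycerides, rose from 5.55 and 5.20 to 8.77 and 8.30 (3.15, SE 0.25). Its counterpart Dgat1 fell by 1.34. The cholesterol exporter genes Abca1 (0.25) and Abcg1 (0.01) did not pass.

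Surface receptors for uptake moved both ways within families. Cd300lb, an activating receptor of the CD300 family, was the 1 gene called with a fall of more than 4 on the rlog scale. It went from 11.05 and 10.90 to 6.82 and 6.53 (-4.30, SE 0.15, adjusted p = 4.49e-06). Its inhibitory relative Cd300a fell from 9.82 and 10.36 to 6.93 and 7.24 (-3.01, SE 0.26), and Cd300lf was at 0.06. The activating Fc gamma receptors Fcgr4 (1.96) and Fcgr1 (1.86) rose while Fcgr3 fell by 0.99. In all, 8 of 25 Fc, CD300 and TREM receptors rose (32%) and 7 fell (28%), with 4 rises after quantile normalization. The shares over all tested genes were 22.5% and 19.7%. The lectin Clec4e, which recognises mycobacterial glycolipid, rose from 13.36 in both 0 h samples to 16.10 and 15.97 (2.67, SE 0.19). Mertk, a receptor for apoptotic cells, rose by 2.36 and Axl by 1.40, while Scarb1 fell by 1.18.

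Lysosomal genes numbered 8 rises (14%) and 5 falls (8.77%) among 57, with a median of -0.02 (2 rises and 26 falls after quantile normalization). Both shares were under those of all tested genes, 22.5% and 19.7%. Ctsc rose by 1.58 and Sgsh fell by 1.99. Of 17 complement genes 3 rose (17.6%, under the 22.5% of all tested genes), led by Cfb (1.58) and C3 (1.15). The soluble pattern receptor Ptx3 rose from 5.23 and 3.93 to 9.0 and 9.29 (4.56, SE 0.41). It was the 1 large difference among 19 oxidase and antimicrobial genes, 7 of which rose (4 without replicate 1 at 0 h or without either cKO LPS sample). Of 19 genes of alternative activation 5 rose and 3 fell (3 rose without replicate 1 at 0 h or LPS replicate 1, and 5 fell without the latter). The shares of the alternative activation list, 26.3% and 15.8%, were near those of all tested genes. Mrc1, the mannose receptor, was at -0.01.

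Adhesion and matrix genes rose in 22 of 42 cases. Vcan, the proteoglycan versican, went from 4.15 and 3.10 to 9.04 and 8.90 (5.35, SE 0.32). Vcam1 rose by 4.49, Mmp13 by 4.63, Itga5 by 2.36 and Icam1 by 2.39. The serine protease inhibitors Serpina3f and Serpina3g rose by 5.78 and 5.74, and their sequences are close enough that reads could have been split between them. Serpinb2, the inhibitor of plasminogen activators, had the widest 0 h gap of the genes named here, with 7.70 and 5.19 before and 12.21 and 10.85 after LPS (5.08, SE 0.72).

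Replication and mitosis had more falls than rises, beside a few cell cycle genes with large rises. Of 43 genes of DNA replication 20 fell and 6 rose, and of 40 mitotic genes 16 fell and 5 rose, each with a median of -0.60. Mcm2, of the replicative helicase, went from 6.40 in both 0 h samples to 4.96 and 4.48 (-1.68, SE 0.20), Mcm7 fell by 1.34, Cdk2 by 1.52 and E2f2 by 2.66. Cdc25b fell by 2.07 and Cenpa by 1.79. Against these, Ccne1 rose by 1.98, Rfc3 by 1.96, Mki67 by 2.04 and the spindle factor Tpx2 from 6.39 and 6.27 to 9.02 and 9.25 (2.81, SE 0.16). Ccnd2, the gene of cyclin D2, was among the 15 largest rises, from 7.64 and 5.59 to 12.39 and 12.01 (5.58, SE 0.55), while its partner Cdk4 fell by 1.08. The mitotic falls numbered 10 without replicate 1 at 0 h and 7 with a filter at a mean of 5.

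DNA repair genes fell in 16 of 38 cases and rose in 3. Chek2, a checkpoint kinase, went from 7.17 in both 0 h samples to 4.94 and 4.70 (-2.35, SE 0.16, adjusted p = 2.34e-05). Xrcc6 and Xrcc5, the 2 subunits of the end-binding Ku protein, fell by 2.06 and 1.42, and their kinase partner Prkdc fell by 0.96. Atm, the kinase that signals double-strand breaks, went the opposite way, from 5.03 and 4.80 to 6.94 and 6.88 (2.0, SE 0.20). Of 32 regulators and p53 targets 10 rose and 7 fell (4 without either 0 h sample). The shares of that list were 31.2% and 21.9%, against 22.5% and 19.7% of all tested genes. Mdm2 rose by 1.91, Gadd45b by 2.72 and the p107 gene Rbl1 by 2.09, while Sesn1 fell from 8.72 and 8.30 to 5.20 and 4.87 (-3.48, SE 0.20). Trp53 itself was at -0.36 and did not pass.

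Ribosomal protein genes were counted apart for cytosol and mitochondrion. Of 75 cytosolic ribosomal protein genes 5 rose and 0 fell, with a median of 0.03 (13 fell after quantile normalization, and 2 rose without replicate 2 at 0 h). Of 76 mitochondrial ribosomal protein genes 4 rose and 24 fell, with a median of -0.30, led by Mrpl42 (-1.35) and Mrpl41 (-1.27); 15 fell without replicate 1 and 14 without replicate 2 at 0 h. Constitutive proteasome genes rose in 17 of 34 cases, by 0.34 to 1.40 with Psma5 at the top, and 1 fell, Psmd5 (-0.56); after quantile normalization 6 rose and 9 fell. Of 31 unfolded protein and heat shock genes 6 rose and 6 fell, 19.4% each, near the 22.5% and 19.7% of all tested genes. Herpud1, which serves degradation at the endoplasmic reticulum, fell from 11.47 and 11.62 to 9.64 and 9.63 (-1.91, SE 0.14). Of 31 tRNA synthetase and amino acid genes 6 rose, among them Psat1 (2.29) and Rars (1.74), and 4 fell (1 without replicate 1 at 0 h, 2 without replicate 2 at 0 h, LPS replicate 1 or either cKO 0 h sample). The tRNA synthetase and amino acid list thus had 19.4% rises and 12.9% falls, both under the 22.5% and 19.7% of all tested genes. Autophagy genes fell in 11 of 31 cases (35.5%, against 19.7% of all tested genes) and rose in 7 (22.6%, near the 22.5% of all). The conjugating enzyme gene Atg7 fell by 1.29, while the cargo receptor gene Optn rose by 1.30. Without replicate 1 at 0 h, or without LPS replicate 2, 7 autophagy genes fell.

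Clock genes and chromatin regulators showed single large members. Of 15 clock genes 5 fell and 0 rose, with a median of -0.56, and Per3 led with 7.59 and 7.55 at 0 h and 4.99 and 5.75 after LPS (-2.20, SE 0.26). The falls numbered 3 without either 0 h sample or without LPS replicate 2. Of 31 histone methylation regulators 9 rose and 4 fell (1 without either 0 h sample, 2 without LPS replicate 1). The methylation shares were 29% and 12.9%, against 22.5% and 19.7% of all tested genes. Kdm4a, a histone H3 demethylase, rose by 2.16 and Setdb2, known as an interferon target, by 1.93. Paxip1, the gene of PTIP, was at 4.50 in both 0 h samples and at 3.82 and 4.08 after LPS (-0.55, SE 0.18, adjusted p = 0.039), and its adjusted p was 0.118 and 0.114 without replicate 1 or 2 at 0 h and 0.176 without LPS replicate 1. Of 26 acetylation genes 6 rose and 6 fell (2 without replicate 1 at 0 h). The acetylation shares, 23.1% in each direction, were near the 22.5% and 19.7% of all tested genes. Hdac1 rose by 1.54, and the class IIa deacetylases Hdac5 and Hdac4 fell by 1.88 and 1.42.

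Samples with the same replicate number gave close differences for most genes. Subtracting 0 h from LPS by number gave differences that correlated at r = 0.888 across genes, and their median gap was 0.27. The gap exceeded 1 for 463 genes and 2 for 33. All 4871 called genes had groups that did not overlap, as did 71.3% of all tested genes. Groups that do not overlap give the same sign by either number. The same sign in all 4871 therefore follows from the call and is no separate support.

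**Figure D5:**
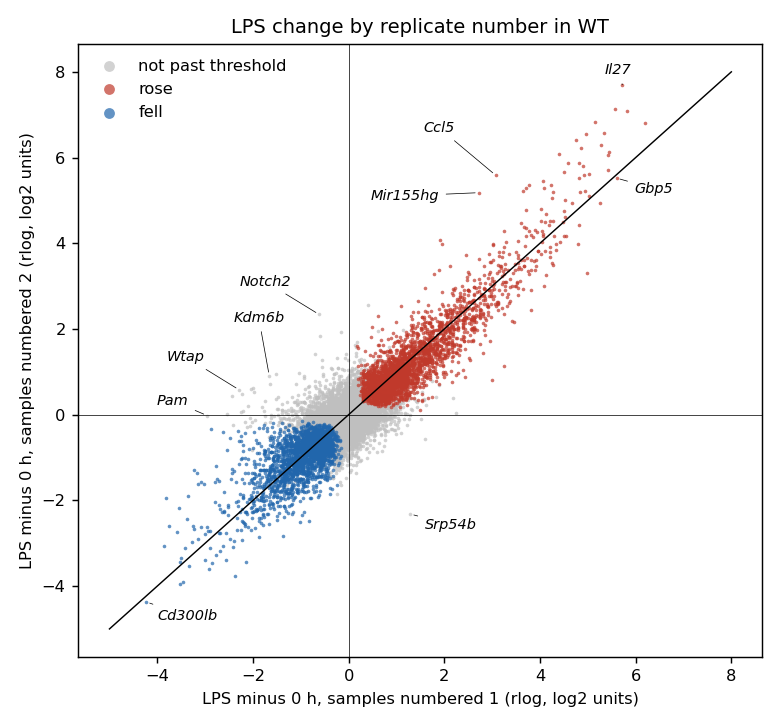
LPS minus 0 h (rlog, log2 units) for samples numbered 1 (horizontal axis) and numbered 2 (vertical axis), 1 point per tested gene, with the line of equality. Differences correlate at r = 0.888; Ccl5 and Mir155hg lie above the line, and Wtap, Kdm6b and Pam lie at -1 or lower by number 1 alone.

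The same genes were compared with the response of macrophages labelled PtipcKO. With a test of the difference between the 2 responses (the interaction of LPS and genotype), 0 genes passed in limma (0% of 11543), and 751 (6.51%) had an unadjusted p under 0.05. With no filter on low values 10 genes passed. For the leading WT genes the cKO differences were 6.72 for Il27, 5.64 for Nos2, 6.79 for Cxcl10, 4.80 for Il6, 5.65 for Gbp5 and -3.57 for Cd300lb. Adjusted p-values of the interaction for these 6 genes lay between 0.682 and 0.999. With 2 samples per group a miss does not show that the responses were alike.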

How the data were processed

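The authors deposited 1 table of regularised log2 (rlog) values for 55226 genes in 8 samples, together with results of 4 comparisons from their own test (log2 fold change, p-value, adjusted value). Per the labels, RNA was extracted with Trizol, primed with oligo-dT and amplified in 15 PCR cycles. Per the submitters' processing notes, CASAVA, HISAT2 2.1.0, featureCounts, DESeq2 and the build GRCm38 were used; settings, strand and annotation: not given in the sources used here. rlog scales samples to each other and shrinks genes with few reads. No counts were used, so depth is unknown and the number of samples limits precision.

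From the rlog values, limma 3.58.1 (R 4.3.3) was fitted to 11543 genes with a mean of at least 3 over the 8 samples, as 4 group means, with a trended prior variance, 4 residual degrees of freedom and Benjamini-Hochberg adjustment at 0.05. SE is that of the difference of means, with the spread estimated over all 4 groups, n = 2 per group. The code of the fit was run on simulated data with independent noise, a check that does not bear on the calls made here. Genes listed at 0 in every sample (26727) were left out. Levels between genes used GENCODE M21 exon lengths. Promoter sequences are from RefSeq, GRCm38.p6, and 8600 tested genes matched.

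The text names the 15 largest rises and falls without overlap between groups, up to 3 per direction in each of 47 gene lists, a set of indicator genes and the 10 highest levels per group. Other list members were chosen as examples after their values were seen. The genes, lists and tests were chosen with earlier results of these data known, so they are no independent support for a direction. Alternatives were other filters, scalings, variance models, a replicate block, leaving out each sample, and the authors' table.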

Additional observations from a re-analysis of the deposited data

How the results depend on the processing

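Numbers of genes that rose and fell stayed within 1.5 times of 2598 and 2273 under each alternative except 1: the authors' deposited table held 1410 falls. Quantile normalization gave 2220 and 2771 and gave the opposite sign for 75 of the 4871 calls. A fit of the WT samples alone gave 2316 and 1909. With each sample left out in turn, rises ranged from 2064 to 2563 and falls from 1597 to 2207, both lowest without WT replicate 1 at 0 h, where 3523 of the calls were kept. A replicate block gave 2810 and 2535 and kept 4795 calls, while the authors' table held 3215 of the 4871 calls in the same direction. Samples with the same number deviated together at r = 0.222 in WT and r = 0.311 in cKO, and with 2 pairs each this does not establish a pairing. Of 246 named genes past the threshold, 193 kept their call under all 18 alternatives, 42 lost it when 1 sample was left out, and 0 were called in the opposite direction. Those 246 genes were picked by rule. Among the 707 called members of all lists, on which the list counts rest, 444 kept their call in every one of 17 refits, the authors' table left apart. Named genes not past the threshold whose sign turned after quantile normalization were Lyz2 (0.00), Ctss (-0.07), Wfdc17 (-0.31), Fth1 (-0.00) and Cyba (-0.59, past the threshold there). Psap was at -0.22 without LPS replicate 1 and 0.03 without LPS replicate 2. The difference between the cKO and WT responses gave 10 genes with no filter on low values. The cause of these shifts was not tested.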

Other observations

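Of the tested noncoding genes 87 rose, 63 fell and 222 did not pass, shares near the 22.5% and 19.7% of all tested genes. AW112010, an interferon-responsive transcript, went from 10.50 and 10.79 to 14.70 and 14.59, a rise of 4.0 (SE 0.21, adjusted p = 1.07e-05). Mir155hg, the host transcript of the inflammatory microRNA miR-155, rose by 3.95 (SE 0.48), from 7.53 and 5.77 to 10.25 and 10.95. Beside Ptgs2 on chromosome 1, Ptgs2os2 rose by 3.27 and Ptgs2os by 2.61; whether the authors' counting used strand is not known, so reads of these genes and of Ptgs2 may not be told apart. The largest falls were in Gm28875 (-2.62), Gm26740 (-2.22) and 2610035D17Rik (-2.02). These genes were picked after their values were seen.

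Among the markers of other cell types, several single genes rose. Klrk1, which encodes the NKG2D receptor of natural killer cells, went from 5.20 and 4.14 to 9.44 and 9.50, while Ncr1 and Prf1 stayed below 0. Lck, a T cell kinase, went from 4.98 and 4.58 to 7.80 and 8.06, with Cd3e at -2.17 in all 4 WT samples. Kdr, the endothelial receptor for VEGF, went from 5.65 and 5.92 to 9.25 and 9.32, with Cdh5 between 0.69 and 1.74 and Vwf between 6.14 and 7.11. Pdgfrb, a receptor of stromal cells, went from 3.77 and 3.07 to 6.25 and 6.28. The summed level (log2) of 7 dendritic cell markers, 4 of them above 3, went from 9.26 and 8.74 to 11.18 and 10.20, with Ccr7 the highest, Zbtb46 at 3.54 and 3.55 and then 4.65 and 4.23, and Xcr1 at 2.95 and 3.15 and then 4.51 and 3.89. The part of such cells in the other results was not tested. Cd28, the T cell costimulatory receptor, was among the 15 largest falls (-3.16), from 7.44 and 6.80 to 3.85 and 4.07.

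A few genes gave opposite differences by replicate number. Srp54b was at 1.29 by number 1 and -2.32 by number 2, Notch2 at -0.62 and 2.34, and the RNA methylation factor Wtap at -2.29 and 0.58. Kdm6b, a histone demethylase gene known to respond to LPS, was at 10.52 and 9.93 before and at 8.86 and 10.84 after LPS, so that its mean difference of -0.37 (SE 0.58) covers a negative value by number 1 and a positive one by number 2.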
